A study of Caenorhabditis elegans with 2 samples.

Results

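The tRNA genes on chromosome X of Caenorhabditis elegans were examined for LIN-11-GFP chromatin immunoprecipitation signal in late embryos. All 276 genes of biotype tRNA on X in the WBcel235 annotation were taken, of 612 nuclear tRNA genes in the genome. This rule uses no measured value, but the set was chosen with earlier results of these data known. Each gene was described by its body plus 200 bp on either side, its window. A gene was counted when the summit of a region, the base the deposited list marks as the region's highest point, lay in its window.

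The samples were whole animals of mixed sex from strain OP62, which carries the unc-119(ed3) mutation on chromosome III and the integrated transgene wgIs62. This transgene expresses LIN-11 with a C-terminal GFP-FLAG tag, and the tagged protein was precipitated with an anti-GFP antibody from sonicated chromatin. Embryos were synchronised by egg bleaching and are labelled late embryonic at 4.25 hours, with no starting point given for that time. There was 1 group of 2 biological replicates, from 1 transgenic line, and every value mixes all cells of the embryo. No list from an untagged strain or from another stage was used here, so no comparison between conditions could be made, and whether the signal at tRNA genes depends on LIN-11 was not tested.

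LIN-11 is a LIM homeodomain transcription factor, one of the proteins after which the LIM domain is named, and is known for its part in vulval and neuronal development. tRNA genes are transcribed by RNA polymerase III from promoter elements that lie inside the gene. The factor TFIIIC recognises the A box near the 5′ end and the B box near the 3′ end of the gene and places TFIIIB just upstream of the start, which recruits the polymerase, and a run of T residues after the gene ends transcription. In worms, as in other animals, many tRNA genes occur in several identical copies, and the X chromosome holds a large part of them.

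The internal promoter was present in nearly all members. The A box was searched as TNGNNNA at bases 8 to 14 of the gene and was found in 257 of the 276 genes (93.1%), compared with 90.2% of the 336 autosomal tRNA genes. The B box was searched on the gene's strand as GTTCGANNC, found in 72.5% of the X genes, or as GTTCAANNC, found in 24.6%, and 268 genes held either form. In 17719 windows of 72 bp spaced 1000 bp apart along X, with both strands searched, the same letters occurred in 3.76%, 0.384% and 1.21% of windows. A match is a match of letters only. A TTTT run began within 10 bases of the 3′ end in 272 genes.

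Identical genes differed in signal, and the sequence shared by the largest such set is shown first. Of all sets of X genes with 1 common body sequence and a sequence that can be printed here, the proline set with anticodon TGG had the most members, 13. The sequences here and below were read 5′ to 3′ from the RefSeq assembly WBcel235, on the strand of the gene, and capitals mark the A box and the B box.
Pro-TGG, 13 genes: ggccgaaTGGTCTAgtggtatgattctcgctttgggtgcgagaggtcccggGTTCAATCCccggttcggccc
This run of 72 bases was read at C16B8.t1 (chrX:3969556-3969627, plus strand) and is the same in all 13 genes, 5 of which had a reproducible summit. The next 5 sequences are those of the strongest members whose sequence can be printed here. They carry 5 different amino acids.
C04A11.t1: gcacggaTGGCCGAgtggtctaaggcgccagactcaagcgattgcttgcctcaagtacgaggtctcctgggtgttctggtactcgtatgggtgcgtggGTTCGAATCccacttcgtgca
F15G9.t1: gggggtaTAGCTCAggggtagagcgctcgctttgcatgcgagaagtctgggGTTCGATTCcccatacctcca
C33G3.t2: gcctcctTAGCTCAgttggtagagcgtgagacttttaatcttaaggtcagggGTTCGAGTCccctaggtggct
F28H6.t1: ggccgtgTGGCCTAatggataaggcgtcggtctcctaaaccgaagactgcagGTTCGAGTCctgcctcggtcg
R04D3.t2: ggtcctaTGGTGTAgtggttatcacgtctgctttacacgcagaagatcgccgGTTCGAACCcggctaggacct
C04A11.t1 is a leucine gene (chrX:13665555-13665673, plus strand) of 119 bases whose annotation has 2 exons, with an intron between the boxes. F15G9.t1 (chrX:9743589-9743660, plus strand) decodes alanine. C33G3.t2 (chrX:14063946-14064018, minus strand) decodes lysine. F28H6.t1 (chrX:14115691-14115763, plus strand) decodes arginine, and R04D3.t2 (chrX:13307034-13307106, plus strand) decodes valine. The last 3 belong to genes with no summit in any list and are shown to set beside them.
F56F10.t1: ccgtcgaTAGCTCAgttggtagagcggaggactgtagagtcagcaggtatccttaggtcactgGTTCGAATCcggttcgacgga
F49E7.t3: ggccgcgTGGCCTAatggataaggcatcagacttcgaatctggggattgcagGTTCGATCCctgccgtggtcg
F49E7.t1: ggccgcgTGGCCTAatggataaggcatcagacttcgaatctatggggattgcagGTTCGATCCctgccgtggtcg
F56F10.t1 (chrX:865389-865472, minus strand) is a tyrosine gene, and F49E7.t3 (chrX:1089173-1089245, minus strand) and F49E7.t1 (chrX:1089400-1089474, plus strand) are arginine genes 154 bp apart. F49E7.t1 is 75 bases long and F49E7.t3 is 73. All 9 printed sequences hold both boxes.

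Signal was measured in 4 deposited lists. The 560 reproducible regions are those the authors kept after the irreproducible discovery rate analysis of both replicates, and 539 of them lay on nuclear chromosomes. The pooled list of 20692 regions and the lists of replicate 1 (21441 regions) and replicate 2 (18735 regions) hold regions and background, so a summit there can be weak. Regions were ranked in each list by their signal value, a score of the authors' without a stated unit, with rank 1 the highest. The lists hold no read counts, so the depth of each replicate is unknown. The 95% intervals given below are exact Clopper-Pearson intervals over genes or summits. They cover counting error only, and neighbouring or identical genes are not independent.

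A reproducible summit was found at 85 of the 276 X tRNA genes, or 30.8% (95% interval 25.4% to 36.6%). The same share was 31.2% over all nuclear tRNA genes and 1.78% over the 46890 annotated nuclear genes, so the X members sat far above genes in general and at the level of other tRNA genes. The 833 positive genes among the 46890 include the 191 positive tRNA genes. In the pooled list 158 X tRNA genes had a summit (57.2%), against 59.2% of all tRNA genes and 24.0% of all genes. Replicate 1 listed 151 members, against backgrounds of 57.5% of tRNA genes and 24.9% of all genes. Replicate 2 listed 152, against 55.7% and 23.2%. The background of all genes includes 15201 autosomal piRNA genes, of which 4.10% had a pooled summit. Among the 2731 protein-coding genes on X the share was 1.90% for reproducible summits and 39.5% in the pooled list. Of the 52 with a reproducible summit, 26 host a positive tRNA gene in an intron, whose summit is counted for the host as well. In the replicate lists the share over these protein-coding genes was 42.7% (replicate 1) and 37.6% (replicate 2), so the contrast in the weaker lists is smaller beside them. Their windows span whole protein-coding gene bodies, while the X tRNA gene bodies have a median of 72 bases. These shares therefore compare windows of unlike length, and no correction for length was made. Of the 29 tRNA pseudogenes that RefSeq annotates on X, 0 had a reproducible summit, with an upper limit of 11.9%, and 3 had a pooled summit.

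The members fell into 4 tiers. Below the 85 reproducible genes came 73 with a summit in the pooled list that was not reproducible, of which 18 ranked 561 to 1000, 26 ranked 1001 to 5000 and 29 ranked lower still. Of these 73 genes, 43 had a summit in both replicate lists, 26 in 1 of them and 4 in neither. Another 20 genes were absent from the pooled list and had a summit in a replicate list: 4 in replicate 1, 14 in replicate 2 and 2 in both. The remaining 98 genes had no summit in any of the 4 lists. Of these 98, 72 were clustered with other tRNA genes and 33 had a sequence found nowhere else among nuclear tRNA genes. Genes with no summit made up 47.1% of clustered and 21.1% of isolated members, and 57.9% of single-copy members against 29.7% of those with identical copies.

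The replicates ranked the reproducible members alike and the weaker members differently, and the selection of the reproducible regions favours both. The reproducible members ranked 29 to 1102 in replicate 1, with a median of 193 over 85 genes. They ranked 27 to 1000 in replicate 2, with a median of 155 over 84 genes. Spearman's rho between the replicate ranks was 0.87 across these 84 genes, against 0.75 across 105 reproducible autosomal tRNA genes, and both sets were kept by an analysis that selects for agreement between the replicates. Across the 45 members in both replicate lists that were not reproducible, rho was -0.10. These are genes the same analysis left out, so low agreement among them is favoured by the selection. Across all 129 members in both replicate lists rho was 0.89. Of the 178 members in any list, 49 were missing from at least 1 replicate list. These are descriptions across genes, and the lists share 1 control alignment. Cut at its 560 strongest regions, replicate 1 held 79 and replicate 2 held 78 of the 85 genes, and both held 75. No gene outside the 85 was among the 560 strongest of both. The glutamine gene F47E1.t1, chosen after its values were seen, was the exception among the 85: it ranked 431 in the pooled list and 269 in replicate 1 and had no summit in replicate 2.

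**Figure D1:**
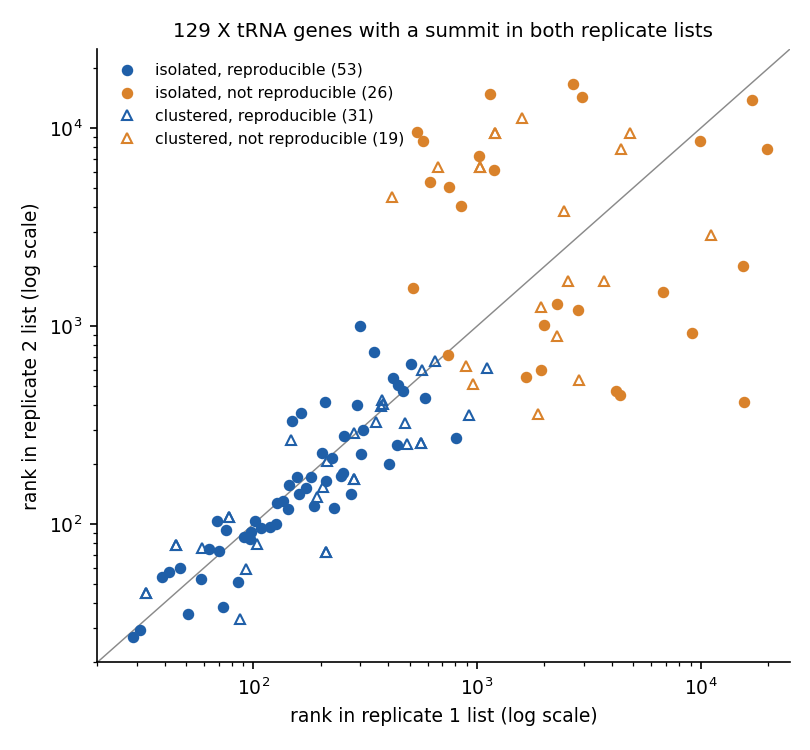
Rank of each X tRNA gene in the replicate 1 list (horizontal) and the replicate 2 list (vertical), both on log scales with rank 1 the strongest, for the 129 genes with a summit in both. Filled circles are isolated genes, open triangles clustered genes, blue reproducible and orange not reproducible, and the line marks equal ranks; the blue points keep to the line and the orange points scatter widely.

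Among the strongest regions of the X chromosome nearly all lay at tRNA genes. Of the 26 X regions among the 100 strongest of the pooled list, 24 had their summit in a tRNA window (92.3%, 95% interval 74.9% to 99.1%), and of the 21 ranked 101 to 200, 18 did (85.7%). On the autosomes the corresponding counts were 7 of 56 and 29 of 77. The X share fell to 48.1% at ranks 201 to 560, 21.0% at ranks 561 to 1000 and 1.28% beyond rank 5000, where the autosomal share was 0.409%. The tRNA windows cover 0.680% of X and 0.185% of the autosomes. The median reproducible rank was 168 over the 85 X genes and 246 over the 106 autosomal tRNA genes with a reproducible summit. Counted by region, the 79 reproducible X tRNA summits had a median rank of 178, and the 45 reproducible X regions away from tRNA genes had one of 415. No test was made of these differences, since genes and regions are not replicates.

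**Figure D2:**
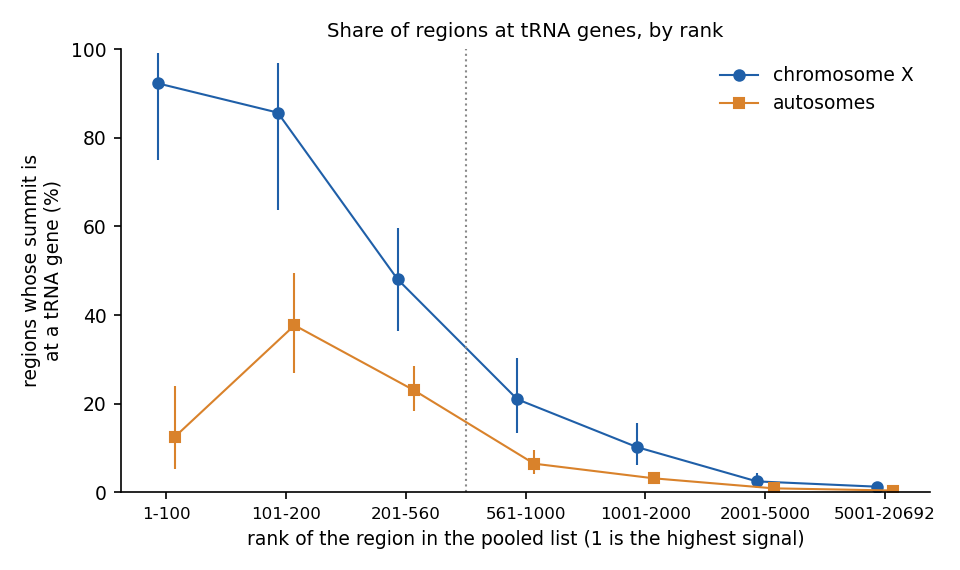
Percent of regions whose summit lies in a tRNA window (vertical) by rank in the pooled list (horizontal), for chromosome X (blue circles) and the autosomes (orange squares), with exact 95% intervals and a dotted line after rank 560. On X the share falls from 92.3% to 1.28% with rank; on the autosomes it is highest, 37.7%, at ranks 101 to 200.

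The strongest member was C04A11.t1, the leucine gene with anticodon CAA. Its signal value was 657 in the pooled list, 396 in replicate 1 and 267 in replicate 2, and it ranked 28, 29 and 27. It was isolated, with the next tRNA gene 9565 bp away, and its sequence was found once. W03G11.t1, a lysine gene with anticodon CTT, followed with signal values of 611, 352 and 260 and ranks of 32, 31 and 29. It was one of 25 identical nuclear copies, 10 of them on X, and it was the one X copy of these with a reproducible summit. Signal values of different lists are not on 1 scale, so the replicates can be compared by rank only.

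The third was the alanine gene F15G9.t1, with anticodon TGC, which lies on the same strand as its host in an intron of him-4, the gene of the extracellular matrix protein hemicentin. It ranked 36, 33 and 45, and its summit lay 107 bp past the 5′ end, between it and F15G9.t2, another alanine gene 86 bp downstream. The isoleucine gene C42D8.t1 ranked 40, 51 and 35. The glycine gene F17H10.t1, in an intron of the sorting nexin gene snx-17, ranked 44, 39 and 54. C28G1.t1, a glutamate gene with anticodon TTC, ranked 45, 42 and 57, and it lay 97 bp from the start of a protein-coding gene. All of these ranked within the first 60 of each list.

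C33G3.t2, a lysine gene with anticodon TTT, ranked 49, 47 and 60. F28H6.t1, arginine with anticodon CCT, ranked 50, 58 and 53. R04D3.t2, valine with anticodon TAC, ranked 53, 87 and 33, the widest gap between replicates among these 12 genes. M02F4.t1, glycine with anticodon TCC, ranked 55, 45 and 78 and shared its summit with the glutamate gene M02F4.t2, which faces away from it 116 bp upstream. F41D9.t3, asparagine, ranked 62, 73 and 38 and lies antisense in an intron of sulp-3, of the sulfate permease family. E03E2.t1, serine, ranked 67, 59 and 76 and lies antisense in an intron of cat-1, the vesicular monoamine transporter gene. Of these 12 genes 8 were isolated, 2 held a sequence present in 2 copies and 1 was single-copy.

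Just outside the reproducible set the replicate ranks parted, which the selection of that set for agreement favours. The weakest genes inside were F12D9.t1 at pooled rank 495 with 919 and 355 in the replicates, T01B4.t1 at 514 with 569 and 597, and F25F6.t2 at 539 with 645 and 665. The first genes outside were C16B8.t1 at 569 with 416 and 4499, F55F3.t1 at 592 with 1881 and 361, and C29F7.t2 at 593 with 2852 and 534. Pooled signal values ran from 120 to 127 for the first 3 and from 114 to 116 for the others, so the pooled signal barely changed across the edge. Each gene outside ranked among the 560 strongest of 1 replicate and far lower in the other.

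Summits sat on the gene itself, close to its 5′ end. The 85 genes shared 79 reproducible summits, 73 with 1 gene in reach and 6 with 2. Of the 79, 53 lay inside the gene body (67.1%, 95% interval 55.6% to 77.3%), 22 upstream and 4 downstream. The median summit lay 12 bp past the 5′ end, with quartiles at −13.0 and 43.5 bp, and 63 summits lay within 50 bp of the 5′ end. The first 20 bases, which hold the A box, drew 27 summits. A further 14 lay 20 to 40 bp upstream, and 14 lay 40 to 60 bp into the gene, where the B box usually begins (median base 52).

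Within 10 bp of the A box lay 28 summits, within 10 bp of the B box 19 others, and 32 lay near neither. The lists do not resolve single boxes, because the summits of the same gene differed by a median of 22.5 bp between replicates. Of 84 genes compared, 41 had replicate summits within 20 bp, 0 at the same base, and the largest distance was 186 bp. In 41 of the 79 regions the summit was given at the region's centre. Isolated genes, with no other tRNA gene within 2000 bp, gave 41 of 54 summits inside and a median of 13.0 bp. Replicate 1 alone placed 51 of 76 and replicate 2 alone 49 of 84 summits inside.

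Weaker summits were spread wider. In the pooled list below rank 560, 34 of 82 X tRNA summits lay inside a gene (41.5%, 95% interval 30.7% to 52.9%), 21 upstream and 27 downstream, and the median offset was 40.0 bp. The downstream share was 32.9% here and 5.06% among reproducible summits.

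**Figure D3:**
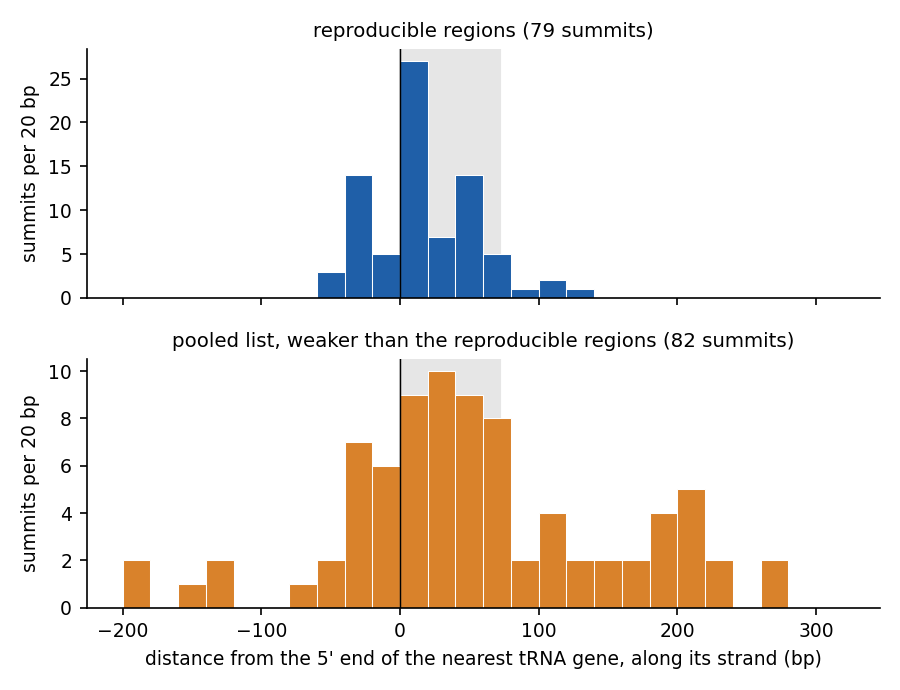
Number of summits per 20 bp (vertical) by distance from the 5′ end of the nearest X tRNA gene along its strand in bp (horizontal), for the 79 reproducible summits (top, blue) and the 82 weaker pooled summits (bottom, orange). Grey marks a gene body of 72 bases, the median length; the reproducible summits peak in the first 20 bases, with 27, and the weaker ones extend past the window's gene body.

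Isolated genes had summits more often than clustered ones. A cluster was taken as tRNA genes with gaps of at most 2000 bp, which put 153 of the members into 59 clusters and left 123 isolated. A reproducible summit was found at 54 of 123 isolated genes (43.9%, 95% interval 35.0% to 53.1%) and at 31 of 153 clustered genes (20.3%, 14.2% to 27.5%). These intervals do not overlap. They do overlap with a cluster gap of 500 bp, at 36.9% (29.6% to 44.7%) and 21.3% (14% to 30.2%), and with a flank of 500 bp, at 43.9% (35.0% to 53.1%) and 28.8% (21.7% to 36.6%). In replicate 1's strongest 560 regions the shares were 43.9% and 19.0%, and in replicate 2's they were 44.7% and 20.3%. On the autosomes the shares were 35.3% (29.0% to 42.1%) and 24.6% (17.1% to 33.4%), whose intervals overlap.

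The share of X genes with a reproducible summit was 26.2% in clusters of 2 genes, 16.7% in clusters of 3, 18.8% in clusters of 4 and 6.90% in clusters of 5 or more, with 2 of 29 genes. By distance to the next tRNA gene, it was 21.3% under 500 bp, 17.8% from 500 to 1999 bp, 38.5% from 2000 to 4999 bp, 37.5% from 5000 to 19999 bp and 49.2% beyond. Counted by cluster, 23 of 59 clusters held at least 1 gene with a reproducible summit (39.0%, 26.5% to 52.6%). That lies within the interval of the isolated genes. The 2 shares are not like for like, since a cluster is counted when any of its genes is positive and an isolated gene has 1 window. All genes were positive in 6 of these clusters and some in the other 17.

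The largest clusters had few positive genes. The F22F1 cluster holds 8 genes in 4162 bp for aspartate, serine, methionine and isoleucine, and 1 of them, the methionine gene F22F1.t6, had a reproducible summit, at ranks 88, 104 and 79 and 10 bp upstream of its 5′ end. Its neighbours F22F1.t3 and F22F1.t9 had pooled ranks of 2072 and 17546, and the other 5 had no summit in any list. The F28H6 cluster holds 6 histidine genes in 1966 bp on alternating strands, and of these F28H6.t2 was listed, at pooled rank 4452, and the other 5 were not. Much of this cluster is repeated sequence: the share of 36-base sequences that occur once in the genome was 80.5% in the window of F28H6.t2 and 54.0% in that of F28H6.t5, but 37.9% at F28H6.t7, 5.93% at F28H6.t3 and F28H6.t6 and 6.36% at F28H6.t4. The part of this in the missing summits was not tested. Of 3 clusters with 5 genes, the leftmost, K01A12, holds arginine and cysteine genes in an intron of K01A12.3. There, 1 pooled summit at rank 1968 fell in the windows of 3 genes, and none was reproducible. Of the other two, named after their values were seen, the glycine and cysteine cluster R04E5 had no reproducible summit, and the glutamine cluster H08J11 had 1, at H08J11.t3 with ranks of 367, 354 and 326.

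Of the 42 clusters of 2 genes, 26 had no gene with a reproducible summit, 10 had 1 and 6 had both. Pairs that face each other had a reproducible summit in 7 of 8 cases, pairs that face apart in 4 of 17, and pairs in the same direction in 5 of 17. Counted by gene, the shares were 43.8%, 23.5% and 20.6%, with a shared summit counted for each gene in reach. Each of the 4 positive pairs that face apart had 1 summit, in the spacer and in the windows of both genes. Among the 6 pairs with both genes positive, F25F6 alone had 2 summits. The orientation classes were made after earlier results were known and hold few pairs.

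How far the windows consist of repeated sequence was measured as well. The median share of 36-base sequences in a window that occur once in the genome was 89.2% over X members, 89.4% for isolated and 88.3% for clustered genes, and 89.3% for genes with and 89.0% for those without a reproducible summit. Within the gene bodies the median was 43.1%. The 6 genes under 50% were all clustered, 4 of them in the F28H6 histidine cluster, and 0 of them had a reproducible or pooled summit. Among genes with at least 80% unique windows, 54 of 119 isolated (45.4%) and 23 of 124 clustered genes (18.5%) had a reproducible summit. The treatment of reads that match several copies by the authors is not stated in the sources at hand.

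**Figure D4:**
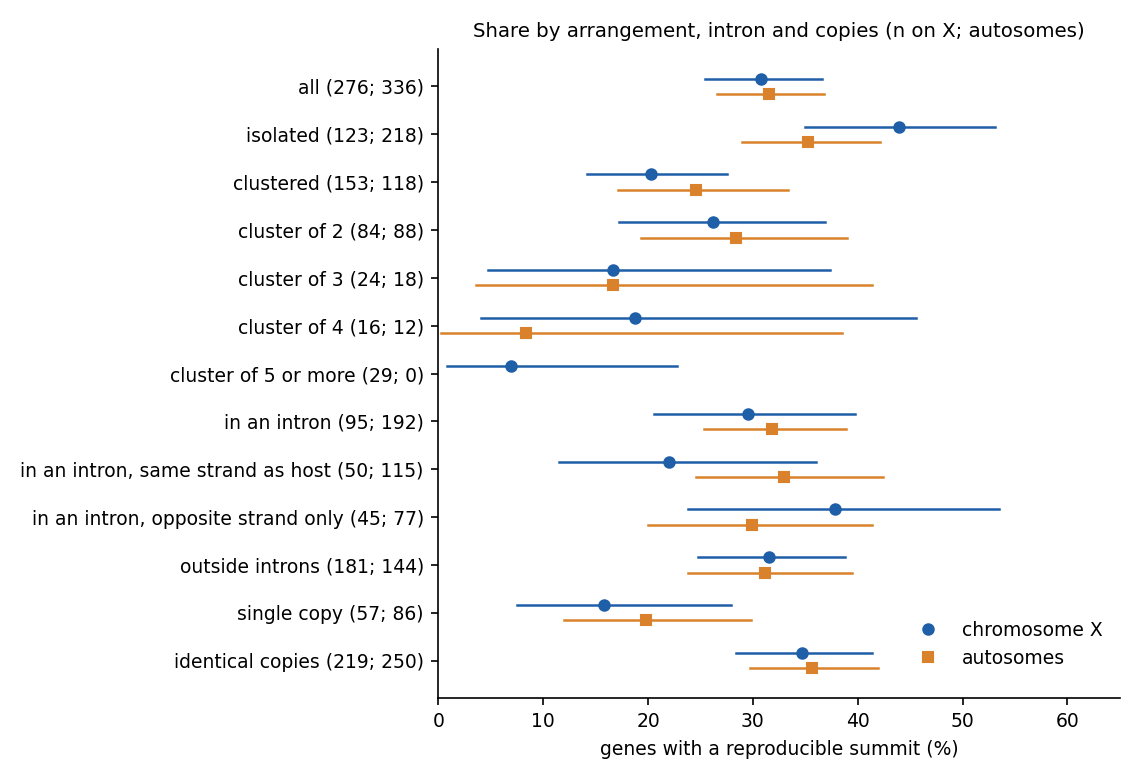
Percent of tRNA genes with a reproducible summit (horizontal) by arrangement, host intron and copies, on X (blue circles) and the autosomes (orange squares), with exact 95% intervals and the number of genes on X and the autosomes in brackets. The isolated and clustered X genes stand apart at 43.9% and 20.3%, while intron-hosted genes and those outside introns lie within each other's intervals.

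The share also varied along the chromosome. X was divided into 5 segments of 3543788 bp, a division chosen after the values were seen. From left to right, 13 of 27, 18 of 30, 18 of 89, 26 of 74 and 10 of 56 genes had a reproducible summit, or 48.1%, 60.0%, 20.2%, 35.1% and 17.9%. The left 2 segments together gave 31 of 57 genes (54.4%, 40.7% to 67.6%) and the other 3 gave 54 of 219 (24.7%, 19.1% to 30.9%). This grouping was also made after the segment shares were seen, which favours intervals that lie apart. Among isolated genes alone the segments gave 66.7%, 68.8%, 21.9%, 57.1% and 24.0%, and among clustered genes 3 of 12, 7 of 14, 11 of 57, 6 of 39 and 4 of 31 had one. Segments 3 and 5 were thus low among isolated genes, while segment 4 lay below segment 3 among clustered ones. In the pooled list 15, 24, 47, 46 and 26 genes of the 5 segments had a summit, with segment 1, at 55.6%, near the 57.2% of all members. The strongest regions of replicate 1 gave 48.1%, 56.7%, 19.1%, 36.5% and 16.1%, and those of replicate 2 gave 48.1%, 56.7%, 22.5%, 36.5% and 16.1%.

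Genes inside and outside host introns had close shares. A reproducible summit was found at 28 of 95 genes inside introns of protein-coding genes (29.5%, 20.6% to 39.7%) and at 57 of 181 outside them (31.5%, 24.8% to 38.8%). Genes on the same strand as the host gave 11 of 50 (22.0%, 11.5% to 36%) and those on the opposite strand 17 of 45 (37.8%, 23.8% to 53.5%), with overlapping intervals. On the autosomes the order was the reverse, at 33.0% and 29.9%. The 95 genes lay in 67 host genes, of which 26 held a positive tRNA gene. By chromosome strand, 45 of 136 plus-strand and 40 of 140 minus-strand genes were positive, 33.1% and 28.6%. A protein-coding start within 1000 bp went with 33.3% of 75 genes and its absence with 29.9% of 201, with overlapping intervals. In the pooled list the shares were 69.3% (57.6% to 79.5%) and 52.7% (45.6% to 59.8%), whose intervals overlap narrowly.

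Genes with identical copies had summits more often than single-copy genes. The 276 members carried 106 distinct sequences, of which 48 had at least 1 gene with a reproducible summit. Of the 219 members with an identical copy among nuclear tRNA genes, 76 had a reproducible summit (34.7%, 28.4% to 41.4%), against 9 of 57 single-copy members (15.8%, 7.48% to 27.9%). The autosomal shares were 35.6% and 19.8%. Isolated members with copies had the highest share of the 4 combinations, 49 of 99 (49.5%), followed by clustered members with copies at 22.5%, isolated single-copy members at 20.8% and clustered single-copy members at 12.1%. Among members with both boxes the share was 34.8% with copies (28.3% to 41.7%) and 16.7% for single-copy members (6.97% to 31.4%). Among members whose windows hold at least 80% unique sequence it was 35.4% (28.7% to 42.6%) and 17.6% (8.40% to 30.9%). Both pairs of intervals overlap, as do those among isolated and among clustered members. Members with 2 to 9 copies gave 38.5% and those with 10 or more 33.1%. In the pooled list the share was 36.8% for single-copy members, 58.5% with 2 to 9 copies and 64.3% with 10 or more. Where a box was missing, 6 of 27 members were positive, against 79 of 249 with both.

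Within a set of identical genes some had a summit and others did not. Of 33 sequences carried by at least 2 X genes, 29 were mixed in this way, covering 193 genes. The alanine TGC set was positive in 3 of 3, and 3 sets with 7 genes in all had none. Glutamate genes with anticodon TTC were positive in 6 of 8, and the identical lysine CTT, histidine GTG and glutamate CTC sets in 1 of 10, 1 of 8 and 2 of 12. The histidine count includes the F28H6 genes with mostly repeated windows. As these genes share their body sequence, the sequences of a set differ in flanks and position only. The listed signal may also differ through the placing or dropping of reads that match several copies, which is not stated. Neither was tested.

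The proline TGG set, whose sequence opens the list of printed sequences, shows the range. ZK899.t1, which is isolated, ranked 99, 102 and 103, with its summit 12 bp past the 5′ end. H06A10.t1, also isolated, ranked 194, 210 and 164. F46G11.t2 and F46G11.t1 face apart and share a summit 29 bp upstream of F46G11.t2, at ranks 120, 211 and 72. C48C5.t1 ranked 365, 476 and 322, with its summit 126 bp past its 5′ end. C16B8.t1 fell just outside the reproducible set, R04D3.t3 had a pooled rank of 14947, and Y7A5A.t3 and Y7A5A.t2 were listed in replicate 2 alone, at rank 2725. C48C5.t3, ZK678.t3, F23D12.t2 and F23D12.t1 had no summit in any list, so identical bodies ranged from the 100 strongest regions of the pooled list to none.

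4 pairs of this set have the same arrangement, with the genes facing apart and their 5′ ends toward a short spacer. In the F46G11 pair, 189 bp apart, 1 reproducible summit lay in the windows of both genes. In the C48C5 pair, 178 bp apart, 1 gene had a reproducible summit in its window. The Y7A5A pair, 160 bp apart, was listed in replicate 2 alone, and the F23D12 pair, 157 bp apart, in no list. The spacers of the first and the last pair, chosen after the values were seen, are printed from the plus strand of X in RefSeq WBcel235, wholly in lower case because no motif was searched in them. The first belongs to the pair with 1 shared summit, which lies in this spacer nearer to F46G11.t2, and the second to the pair in no list.
between F46G11.t2 and F46G11.t1: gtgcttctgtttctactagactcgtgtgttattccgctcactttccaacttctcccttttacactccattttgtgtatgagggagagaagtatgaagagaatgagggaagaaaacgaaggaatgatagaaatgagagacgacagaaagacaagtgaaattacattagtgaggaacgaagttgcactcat
between F23D12.t2 and F23D12.t1: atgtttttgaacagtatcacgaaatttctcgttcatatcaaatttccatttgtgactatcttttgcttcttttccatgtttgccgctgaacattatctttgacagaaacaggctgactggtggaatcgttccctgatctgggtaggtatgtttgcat
The first spacer (chrX:5801283-5801471) is 189 bp long and the second (chrX:14437945-14438101) 157 bp. The 4 genes have 1 body sequence between them.

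By amino acid, every one of the 20 had at least 1 X gene with a reproducible summit. The alanine genes had the highest share, 7 of 13 (53.8%, 25.1% to 80.8%), followed by glycine with 9 of 20 (45.0%) and proline with 8 of 20 (40%). The lowest shares were those of lysine, 2 of 18 (11.1%, 1.38% to 34.7%), and arginine, 5 of 27 (18.5%, 6.30% to 38.1%). Lysine was not low in the pooled list, with 11 of 18 genes (61.1%), and arginine had 11 of 27 (40.7%), against 57.2% over all members. Intervals of neighbours in this order overlap throughout, and those of alanine and lysine overlap too. Of 44 anticodons on X, 40 had a gene with a reproducible summit. The 3 genes whose amino acid was undetermined had none.

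The order differed from that of the autosomes. Lysine genes were positive in 13 of 28 cases on the autosomes (46.4%) and arginine genes in 8 of 17 (47.1%), above the upper limits of the X intervals. A pooled summit was found at 67.9% of the autosomal lysine genes, close to the 61.1% on X. Glycine and proline went the other way, with 7 of 35 and 4 of 22 genes on the autosomes. The autosomal glycine and proline shares lie below the lower limits on X, 23.1% and 19.1%. The autosomal shares carry counting error of their own, and no interval was computed for them here. None of the 4 gaps is therefore shown to exceed counting error. These are 4 of 20 amino acids set side by side, and no gap was tested. Both strong lysine genes of X, W03G11.t1 and C33G3.t2, were isolated and in the first 60 of every list, while the other 16 lysine genes had no reproducible summit.

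**Figure D5:**
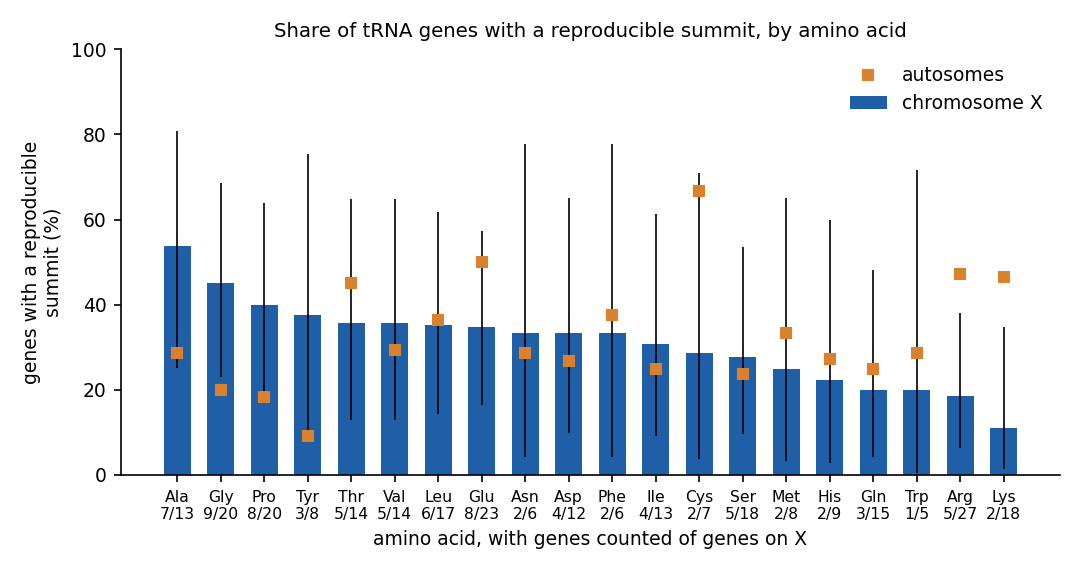
Percent of X tRNA genes with a reproducible summit (blue bars) by amino acid, with exact 95% intervals (black lines) and counts under each bar, and the autosomal share (orange squares). Alanine is highest on X at 53.8% and lysine lowest at 11.1%, where the autosomal square stands at 46.4%.

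The best gene of each remaining amino acid spanned ranks from 69 to 210. Histidine C06G1.t1 ranked 69, 85 and 51, aspartate F38G1.t2 79, 93 and 59, and threonine R01H5.t1 83, 69 and 104. Glutamine R04A9.t1 ranked 84, 75 and 93, tyrosine C02B4.t2 102, 108 and 96, and phenylalanine T28B4.t1 105, 118 and 97. For tryptophan the best gene was sup-7, known from amber suppressor mutations, at 159, 156 and 173, with its summit 3 bp past the 5′ end. The tryptophan suppressor genes sup-28 and sup-33, named after their values were seen, lie 856 bp apart in trk-1; sup-28 ranked 623, 954 and 511 and sup-33 had no summit. Cysteine F42D1.t1 had the lowest place, at 210, 163 and 364.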

How the data were processed

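LIN-11-GFP ChIP-seq regions of 2 biological replicates were used as the authors deposited them. Per the deposited notes, regions were called on ce11 (the build WBcel235) for each replicate and for both together with 1 control alignment, and reproducible regions were derived from these lists. No aligner, caller, version or IDR threshold is named in these sources. The signal value is a score of the authors' without a stated scale; the deposited −log10 q-value was not used to rank.

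Coordinates were made 1-based, and summits were the region start plus the deposited offset. Genes, introns and biotypes came from the Ensembl 115 annotation. Amino acids came from the RefSeq annotation, by identifier for all 276 members, and anticodons were read from the sequence for 271. The 22 mitochondrial tRNA genes were set apart. Intervals were computed with Python 3.11.15 and scipy 1.17.1. Counting of summits was checked on simulated summits at known places. Alternatives changed the flank, cluster gap, region set and rule of assignment, and left out each replicate by taking the other's 560 strongest regions. Of the 560 reproducible regions 541 were among the 560 strongest pooled ones. Genes were named by a rule, with exceptions stated. The members and lists were chosen with earlier results of these data known. No p-value is given, since there is 1 group and genes are not replicates.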

Additional observations from a re-analysis of the deposited data

How the results depend on the processing

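Of 76 alternatives to 9 shares, 60 lay within the 95% interval of the reported value and 16 outside it; isolated X genes stayed above clustered ones under each, though with overlapping intervals for a cluster gap of 500 bp and a flank of 500 bp. With the window cut to the gene body (flank of 0 bp), the share with a reproducible summit fell to 19.2% over X genes, 33.3% isolated, 7.84% clustered, 20% in introns, 18.8% outside introns, 21.5% with identical copies and 21.1% on the autosomes, and the share with a pooled summit to 31.5%, since the smaller window holds fewer summits. With a flank of 500 bp the clustered share was 28.8% and the pooled share 70.3%. With only the 280 reproducible regions of higher signal, the shares were 21.7% over X genes, 33.3% isolated, 12.4% clustered, 22.1% outside introns, 24.2% with identical copies and 18.8% on the autosomes, since this set holds fewer regions. Leaving out a replicate gave 30.1% to 31.2% over X genes, 43.9% to 44.7% isolated, 19.0% to 20.3% clustered, 28.4% to 30.5% in introns, 30.9% to 31.5% outside introns, 34.2% to 35.2% with identical copies, 28.3% to 31.0% on the autosomes, 54.7% to 55.1% in a single replicate's whole list and 58.3% to 67.1% of summits inside a gene. The 4 alternatives restricted to unique windows were added after seeing the data. No paired analysis was possible because there is 1 group. The lists give no read counts, so genes with no summit may have signal below what these lists record.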
